A study of Mus musculus with 6 samples.

Results

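The genes of prostaglandin synthesis, breakdown and reception described here were the 10 rows of the deposited count table named Ptgs1, Ptgs2, Ptges, Ptges2, Ptgis, Hpgds, Hpgd, Ptger2, Ptger3 and Ptger4, of 17830 genes in all. They were chosen by symbol, and all 10 were found in the table and passed the filter on low counts, as did 13484 genes in total. The libraries were made from cells labelled as skull bone osteoblasts, 3 from mOCN-Cre; Ai9 mice (control) and 3 from TgAPPswemOCN-Cre; Ai9 mice (APPswe), and the study's supplement describes the mice as males aged 6 months. Both groups carry Cre, knocked in behind the osteocalcin gene Bglap, and the Ai9 allele, which makes the red protein tdTomato wherever Cre has acted. The APPswe mice also carry a human APP transgene with the Swedish mutations, under the CAG promoter and behind a stop cassette that Cre removes. The cells grew out of calvarial bone chips, were replated in culture and were sorted for tdTomato, so the label follows every cell in which Cre has acted and the descendants of that cell. How many animals went into a library is not given in the sources used here, so p-values measure the spread between these libraries, which may be technical.

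Prostaglandins are short-lived lipid signals made from arachidonic acid. The cyclooxygenases encoded by Ptgs1 and Ptgs2 make a common precursor, from which terminal synthases form prostaglandin E, prostaglandin D, prostacyclin or thromboxane. Each product acts on its own G protein-coupled receptors, and the dehydrogenase encoded by Hpgd inactivates several of them. In bone, prostaglandin E is made by cells of the osteoblast lineage and by macrophages, and is known to act on both bone formation and osteoclast formation.

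The libraries held between 17263757 and 18398392 counts, at which 3 counts, taken as the floor of detection, correspond to 0.167 to 0.173 CPM (counts scaled to library size, with TMM normalization). This floor covers counting error only. The mouse gene App was at 1120 ± 154 CPM (SD, n = 3) in the controls, against 1040 ± 19.2 CPM (SD, n = 3) with APPswe, but these counts are for the mouse gene and not for the human transgene, so this does not check the genotype labels. The library labelled control replicate 2 stood apart from the other controls. Ddx3y, Eif2s3y, Kdm5d and Uty, 4 genes of the Y chromosome, summed to 2 counts in it, against 2257 to 3406 in each of the other libraries, and Bglap had 1 count, against 115 to 204. The Y-linked counts of this library go against the description of the mice as male, and its Bglap count is low for cells sorted by a reporter that depends on Bglap-driven Cre. It was kept, so every control mean includes it, and values without it are given below. Of the markers of osteoblasts, 2 of 11 tested rose (Runx2 and Sp7) and 1 fell (Spp1). This list summed to 17600 to 18800 CPM in control and 11600 to 12300 CPM in APPswe libraries, with Spp1, Col1a1 and Col1a2 by far the most abundant. Its median was 1.12 CPM in control replicate 2, against 20.9 and 21.1 CPM in control replicates 1 and 3. Ibsp and Alpl were far lower in that library than in the other controls, and Runx2, Col1a1 and Col1a2 higher. Alpl was higher in every APPswe library than in every control without passing the test (edgeR adjusted p = 0.291). Bglap was at 9.18, 0.0562 and 11.5 CPM in control and 6.45, 7.13 and 8.93 CPM in APPswe replicates 1, 2 and 3. Of the osteocyte markers, Sost had at most 3 counts in any library, and Dmp1 was at 15.1, 0.112 and 14.3 CPM in control and 0.673, 0.891 and 0.787 CPM in APPswe replicates 1, 2 and 3, without passing the test (edgeR adjusted p = 0.0804). Macrophage markers were present at high levels in all libraries, with a summed level of 18300 to 25100 CPM in control and 12700 to 13700 CPM in APPswe libraries, and 8 of 14 fell while 1 rose. All 9 skeletal muscle markers tested rose, from a sum of 3.89 to 11.2 CPM to a sum of 161 to 172 CPM. Of the osteoclast markers 4 of 7 tested rose, with sums of 180 to 328 CPM in control and 616 to 627 CPM in APPswe libraries. Of the 6 endothelial markers 1 fell, with sums of 27.3 to 208 CPM in control and 10.2 to 11.9 CPM in APPswe libraries. All 6 had a log2 fold change below 0, with a median of -3.6. The sum of 27.3 CPM was that of control replicate 2, with Kdr at 25.5 CPM and Pecam1 at 0.0562 CPM. Of 5 smooth muscle markers 2 rose, with sums of 1020 to 2160 CPM in control and 2450 to 2550 CPM in APPswe libraries. None of the mast cell or T and B cell markers had enough counts to be tested, with sums of at most 3.35 and 0.226 CPM. The single neutrophil marker tested did not pass, and this list summed to at most 1.56 CPM. A lower level in these bulk libraries cannot tell fewer cells of a type from less RNA per cell, and the part that cell types play in the results below was not tested.

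In APPswe libraries 4 of the 10 genes rose, namely the prostaglandin E receptor genes Ptger2, Ptger3 and Ptger4 and the synthase gene Ptges. The dehydrogenase gene Hpgd, the prostaglandin D synthase gene Hpgds and the cyclooxygenase gene Ptgs1 fell. Ptgs2, Ptges2 and Ptgis did not pass the test. A gene was taken to have changed at an adjusted p of at most 0.05 in edgeR's quasi-likelihood test, fitted on all 13484 genes and adjusted over them by the Benjamini-Hochberg method. Across all genes tested, 10.5% rose and 12.0% fell by this rule. The stricter rule stated in the study's methods, which also asks for a log2 fold change of 1 or more in size, called Ptger2 and Ptger3 higher and Hpgd lower, against 3.74% of all genes called higher and 3.60% called lower. In 4 genes every APPswe library lay above every control library and in 3 genes below, against 22.8% and 22.2% of all genes tested. The median log2 fold change was 0.32 over the 10 genes and 0.00 over all genes tested. With single libraries left out, between 3 genes (without APPswe replicate 2 or 3) and 9 genes (without control replicate 2) passed the test, and 4 passed without APPswe replicate 1. Of all genes, 1373 of 13742, 1042 of 13731 and 1024 of 13742 passed without APPswe replicate 1, 2 or 3, against 3036 of 13484 with all libraries. Without control replicate 2, 5 rose and 4 fell, where 23.3% of 13753 genes rose and 25.0% fell.

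**Figure D1:**
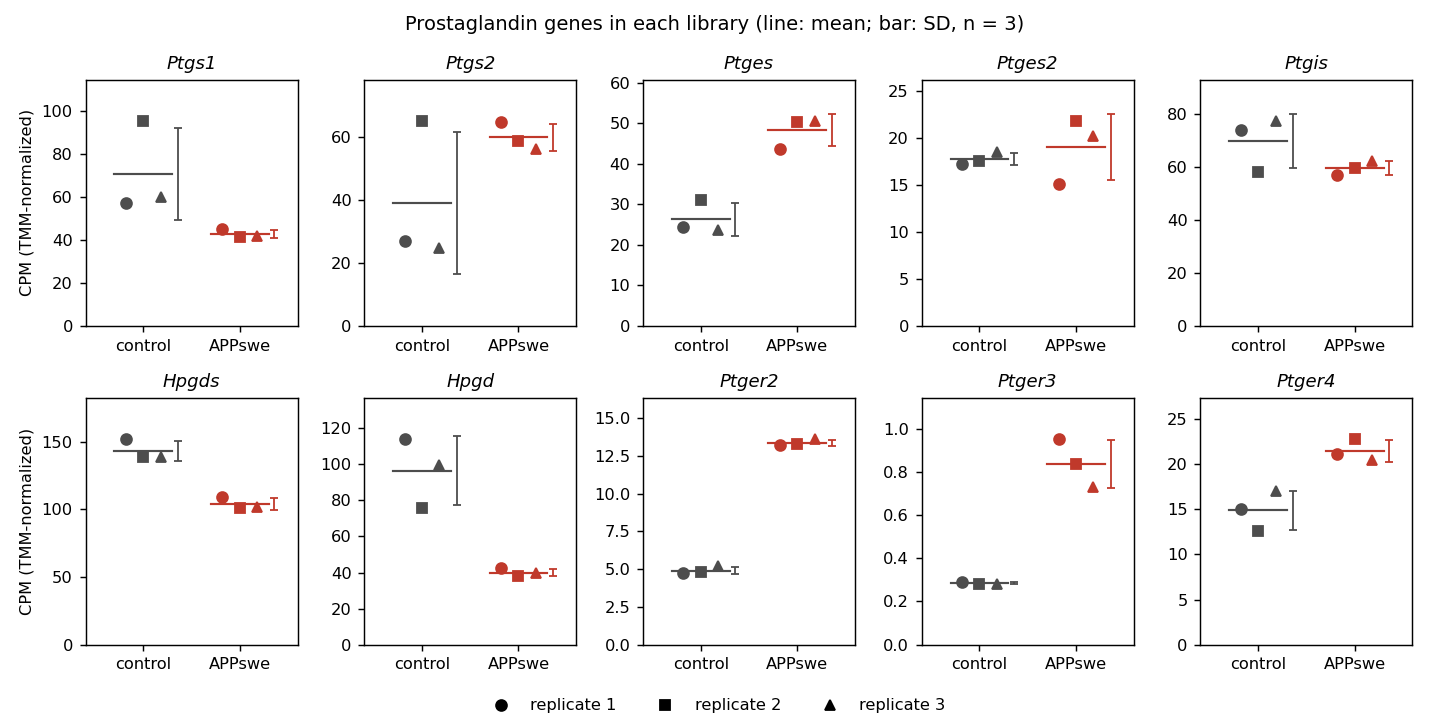
Level of each of the 10 genes in CPM (vertical axes, from 0) in the 3 control (grey) and 3 APPswe (red) libraries, with the group mean as a line and the SD as a bar, and the replicate number as the marker shape. Ptges, Ptger2, Ptger3 and Ptger4 are higher and Ptgs1, Hpgds and Hpgd lower in every APPswe library, while the Ptgs2 level of 65.0 CPM in control replicate 2 lies above those of all 3 APPswe libraries.

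The promoters of Ptgs2, Ptges, Hpgd and Ptger2 are shown because the results for the cyclooxygenases, the synthases, the breakdown step and the receptors turn on them. Each window runs from 250 bases before to 30 bases after the transcription start that RefSeq gives on GRCm38.p6, and is written 5′ to 3′ on the strand of the gene. Windows were found for 9 of the 10 genes, not for Ptgis. Capitals mark matches on either strand to 8 motifs. The TATA box was searched as TATAAA and the cyclic AMP response element (CRE) as TGACGTCA. The CRE half-site, TGACG, lies within the full CRE and was counted wherever it occurred. The E-box was searched as CACGTG, the GC box as GGGCGG and the CCAAT box by the letters of its name. The AP-1 site, bound by Fos and Jun proteins, was searched as TGANTCA, and the Runx core as TGTGGT.
Ptgs2, chr1:150099781-150100060, plus strand: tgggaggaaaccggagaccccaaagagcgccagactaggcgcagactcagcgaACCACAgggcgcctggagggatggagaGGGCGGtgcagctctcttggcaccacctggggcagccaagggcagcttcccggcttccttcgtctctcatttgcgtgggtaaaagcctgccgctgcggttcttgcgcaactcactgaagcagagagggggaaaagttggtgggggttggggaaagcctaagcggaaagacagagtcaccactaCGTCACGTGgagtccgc
Ptges, chr2:30903268-30903547, minus strand: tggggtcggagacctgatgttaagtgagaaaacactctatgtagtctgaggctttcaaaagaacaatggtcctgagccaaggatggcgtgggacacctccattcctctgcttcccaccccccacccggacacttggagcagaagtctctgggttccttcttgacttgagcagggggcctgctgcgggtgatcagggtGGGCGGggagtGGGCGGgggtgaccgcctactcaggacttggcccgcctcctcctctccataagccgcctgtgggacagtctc
Hpgd, chr8:56294302-56294581, plus strand: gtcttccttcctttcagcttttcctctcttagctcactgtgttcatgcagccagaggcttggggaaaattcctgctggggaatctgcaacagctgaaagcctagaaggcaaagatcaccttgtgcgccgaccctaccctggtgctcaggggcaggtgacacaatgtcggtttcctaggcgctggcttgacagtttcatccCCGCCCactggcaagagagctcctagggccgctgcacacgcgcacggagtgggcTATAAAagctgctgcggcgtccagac
Ptger2, chr14:44987861-44988140, plus strand: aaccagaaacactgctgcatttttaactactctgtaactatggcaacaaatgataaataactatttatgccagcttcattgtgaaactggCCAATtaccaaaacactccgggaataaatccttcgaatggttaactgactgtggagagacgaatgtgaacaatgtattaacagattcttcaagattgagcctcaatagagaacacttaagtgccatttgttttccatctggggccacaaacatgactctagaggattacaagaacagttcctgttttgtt

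In the Ptgs2 window a CRE half-site and an E-box overlapped just after the annotated start, at positions 14 to 18 and 17 to 22. It also held a GC box and a Runx core, the sequence bound by the osteoblast factor Runx2. Ptges had 2 GC boxes, at positions -53 to -48 and -42 to -37. Hpgd had a GC box and, at positions 5 to 10, a TATA box, and the Ptger2 window, with a GC content of 37.9%, held a CCAAT box and no other of these motifs. Among the 9 windows, 5 held a GC box, 2 an E-box, 2 a CCAAT box, 2 a Runx core, 1 a TATA box and 1 a CRE half-site. Of all 32851 windows of this length, 34.7% held a GC box, 6.79% an E-box, 36.1% a CCAAT box, 15.6% a Runx core, 13.1% a TATA box and 19.9% a CRE half-site. None of the 9 held a full CRE or an AP-1 site, which 1.74% and 7.46% of all windows held. For Hpgd, Ptger2 and Ptger3 the bases just after the RefSeq start lay in no GENCODE M21 transcript of the gene, whose transcripts begin further in, so these windows depend on the annotated start. For Ptges, Ptgs1, Hpgds and Ptger3 the RefSeq start used for the window lies inside the span that RefSeq gives for the gene. A match is given as a description of the letters and not as a site that a factor binds.

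Of the cyclooxygenases, Ptgs1 (NCBI gene 19224, chr2:36216742-36258593), the form most cells make constantly, had 994, 1701 and 1061 counts in the controls (replicates 1, 2 and 3) and 806, 745 and 743 counts with APPswe. In CPM these were 57.4, 95.6 and 59.9 in control and 45.2, 41.5 and 41.8 in APPswe libraries. All APPswe libraries were lower than all controls, and control replicate 2 was the highest. Ptgs1 fell by 0.73 on the log2 scale (standard error 0.20, edgeR adjusted p = 0.0427). The call was lost without control replicate 3 (edgeR adjusted p = 0.051), without APPswe replicate 1, 2 or 3 (0.12, 0.149 and 0.145), with library totals in place of TMM (0.0586), with the naming style described at the end as a covariate (0.0972) and with limma on FPKM (adjusted p = 0.097 to 0.129). Without control replicate 2 the fall was smaller, with a log2 fold change of -0.45, and passed (edgeR adjusted p = 0.000548).

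Ptgs2 (NCBI gene 19225, chr1:150100031-150108234), the form induced by cytokines and mechanical load, had 467, 1157 and 439 counts in the controls (replicates 1, 2 and 3) and 1151, 1053 and 999 counts with APPswe. This is 27.0, 65.0 and 24.8 CPM in control and 64.5, 58.7 and 56.1 CPM in APPswe libraries. Control replicates 1 and 3 lay well under every APPswe library, but control replicate 2 lay above them all, so the groups overlapped. With all libraries the log2 fold change was 0.62 (95% interval -0.24 to 1.48, edgeR adjusted p = 0.259). Without control replicate 2 it was 1.21 (95% interval 1.01 to 1.41, edgeR adjusted p = 1.54e-06), the single library whose removal brought Ptgs2 past the threshold. With any of the other 5 libraries left out it was 0.37 to 0.66 (edgeR adjusted p = 0.378 to 0.495). Control replicate 2 also had the fewest Bglap and Y-linked counts. Of the 5 smooth muscle markers, Acta2, Cnn1 and Tagln were higher in it than in the other controls (Acta2 at 1520 against 659 CPM in each), and Myh11 (2.14 against 7.45 and 7.84 CPM) and Rgs5 (0.731 against 7.68 and 7.90 CPM) were lower. Its part in the Ptgs2 result was measured only by leaving it out.

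The ratio of Ptgs2 to Ptgs1 counts, which does not depend on how libraries are scaled, was 0.470, 0.680 and 0.414 in control replicates 1, 2 and 3 and 1.43, 1.41 and 1.34 in APPswe replicates 1, 2 and 3. Ptgs1 had more counts in every control library and Ptgs2 had more in every APPswe library, control replicate 2 included. The mean log2 ratio was -0.97 ± 0.37 (SD, n = 3) in control and 0.48 ± 0.05 (SD, n = 3) in APPswe libraries, a difference of 1.45 with p = 0.1 in a two-sided exact permutation test, the smallest p that 3 against 3 libraries allow. Per transcript length, in the FPKM values of the authors, the ratio was 0.322 to 0.495 in control and 1.06 to 1.12 in APPswe libraries. Over the 6 libraries, the genes with the pattern most like Ptgs1 in log2 CPM were Vps35l, Tcof1 and Uggt1 (Pearson r = 0.999 each), and those most like Ptgs2 were Nop58 (r = 0.998), Tmtc4 and Ints2 (r = 0.997 each). Of 12214 genes ranked, 543 had r over 0.95 with Ptgs1 and 290 with Ptgs2, so such likeness was common among these 6 libraries, of which control replicate 2 stands apart.

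**Figure D2:**
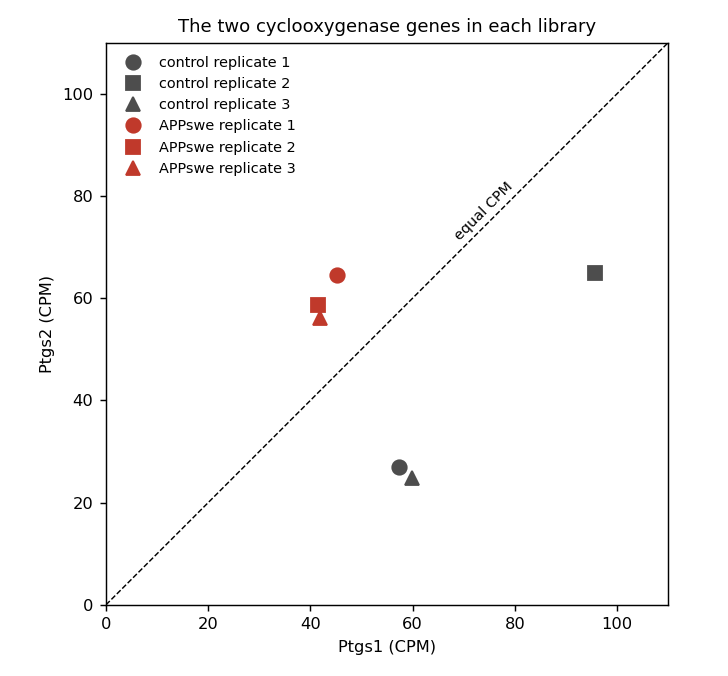
Level of Ptgs2 (vertical axis, CPM) against Ptgs1 (horizontal axis, CPM) in each of the 6 libraries, with a dashed line where both are equal. The 3 APPswe libraries lie above the line and the 3 control libraries below it, and control replicate 2, at 95.6 CPM of Ptgs1 and 65.0 CPM of Ptgs2, lies far to the right of the other controls.

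The terminal synthases moved in different directions. Ptges (NCBI gene 64292, chr2:30889471-30931020), the inducible microsomal prostaglandin E synthase that works with Ptgs2, was at 24.4, 31.0 and 23.6 CPM in control and 43.7, 50.4 and 50.6 CPM in APPswe replicates 1, 2 and 3. The lowest APPswe library lay above the highest control, which was again control replicate 2. Ptges rose by 0.87 on the log2 scale (standard error 0.13, edgeR adjusted p = 0.00579), a fold of 1.83. It stayed past the adjusted p in all 16 alternatives run, with log2 fold changes of 0.79 to 1.01, and reached the fold limit only without control replicate 2 (1.01).

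Ptges2 (NCBI gene 96979, chr2:32395890-32402740) encodes a further enzyme named for prostaglandin E synthesis. It was at 17.2, 17.5 and 18.5 CPM in control and 15.1, 21.8 and 20.2 CPM in APPswe replicates 1, 2 and 3. APPswe libraries lay on both sides of the controls, with a log2 fold change of 0.10 (95% interval -0.26 to 0.46, edgeR adjusted p = 0.671). Ptgis (NCBI gene 19223, chr2:167203194-167252150), the prostacyclin synthase gene, was at 73.8, 58.2 and 77.4 CPM in control and 57.1, 59.7 and 62.4 CPM in APPswe libraries. Only control replicate 2 fell within the APPswe range, and the log2 fold change was -0.22 (95% interval -0.51 to 0.06, edgeR adjusted p = 0.215). Without control replicate 2 it was -0.34 (edgeR adjusted p = 0.00269).

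Hpgds (NCBI gene 54486, chr6:65117293-65144981), the hematopoietic prostaglandin D synthase gene of macrophages and mast cells, was at 152, 139 and 139 CPM in control and 109, 101 and 102 CPM in APPswe replicates 1, 2 and 3. The groups did not overlap. Hpgds fell by 0.46 on the log2 scale (standard error 0.07, edgeR adjusted p = 0.00719), and the call was lost without APPswe replicate 2 (0.0548) or 3 (0.0539). The mast cell genes Cpa3, Fcer1a, Hdc, Mcpt4 and Cma1 had at most 3 counts in any library, and Kit, which other cells make too, had 54, 1 and 45 counts in control and 7, 5 and 9 counts in APPswe replicates 1, 2 and 3. Of the 14 macrophage markers 8 fell, Lyz2 and Cd68 among them, Aif1 rose, and Ptprc, Csf1r, Fcgr1, Mrc1 and Mertk did not pass. The part of macrophage content in the fall of Hpgds was not tested.

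Hpgd (NCBI gene 15446, chr8:56294552-56321046), whose enzyme carries out the first step of prostaglandin inactivation, showed the largest fall of the 10 genes. It was at 114, 75.8 and 99.9 CPM in control and 42.3, 38.0 and 39.7 CPM in APPswe replicates 1, 2 and 3. The lowest control was control replicate 2, and it still lay above every APPswe library. The log2 fold change was -1.27 (standard error 0.15, edgeR adjusted p = 0.00286), a level 2.41-fold lower, and it stayed between -1.41 and -1.14 and past the adjusted p in all 16 alternatives run. The endothelial list, with sums of 27.3 to 208 CPM in control and 10.2 to 11.9 CPM in APPswe libraries, was also lowest among the controls in control replicate 2, but Kdr, the 1 endothelial marker that passed, was highest there (25.5 against 10.9 and 12.6 CPM). Among the controls, the osteoblast, macrophage and osteoclast sums were lowest in control replicate 2 too, and the smooth and skeletal muscle sums highest. These sums follow the most abundant markers, and single markers went both ways. The macrophage median was highest in control replicate 2 (684 against 562 and 547 CPM). There Lyz2 was lower (9770 against 14800 and 16100 CPM), and Csf1r (1360 against 778 and 820 CPM) and Cd14 were higher. In the osteoclast list Ctsk was lower there and Dcstamp higher (6.8 against 2.83 and 2.43 CPM). The part of cell types in the fall of Hpgd was not tested.

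**Figure D3:**
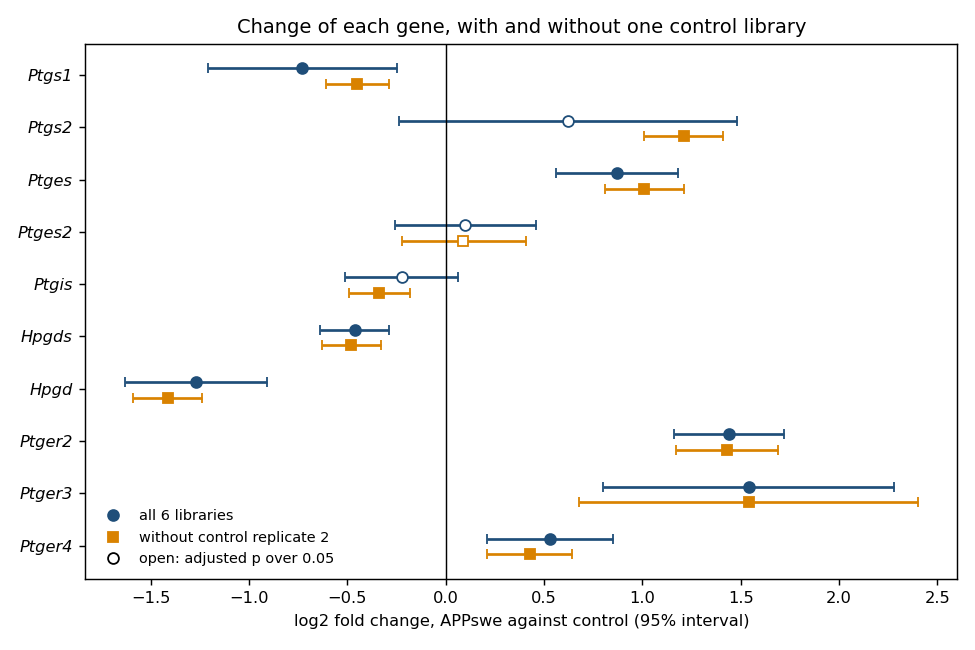
Log2 fold change of each of the 10 genes, APPswe against control (horizontal axis), with its 95% interval from edgeR, for all 6 libraries (blue circles) and without control replicate 2 (orange squares), open where the adjusted p was over 0.05. The Ptgs2 interval runs from -0.24 to 1.48 with all libraries and from 1.01 to 1.41 without control replicate 2, whereas the point for Ptger2 moves only from 1.44 to 1.43.

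The 3 prostaglandin E receptor genes among the members, for the receptors named EP2, EP3 and EP4, all rose. Ptger2 (NCBI gene 19217, chr14:44988111-45003820), whose receptor raises cyclic AMP, had 82, 85 and 92 counts in control and 235, 238 and 242 counts in APPswe replicates 1, 2 and 3. In CPM this is 4.90 ± 0.252 (SD, n = 3) and 13.3 ± 0.224 (SD, n = 3), a gap far wider than the spread in either group. The log2 fold change was 1.44 (standard error 0.12, edgeR adjusted p = 0.000917), a fold of 2.72, and it passed in all 16 alternatives run, with values of 1.05 to 1.51.

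Ptger4 (NCBI gene 19219, chr15:5233399-5244187), whose receptor also raises cyclic AMP, had 261, 224 and 301 counts in the controls and 379, 409 and 364 counts with APPswe. In CPM the means were 14.9 ± 2.20 (SD, n = 3) and 21.5 ± 1.19 (SD, n = 3). The groups did not overlap, and Ptger4 rose by 0.53 on the log2 scale (standard error 0.14, edgeR adjusted p = 0.0342). The call was lost without control replicate 1 (0.0857), without APPswe replicate 1, 2 or 3 (0.0975, 0.135 and 0.1) and with the naming style as a covariate (0.0572). Exons of Ttc33 on the opposite strand overlap those of Ptger4, and whether counting used strand is not given in the sources used here. The Ttc33 level was 26.6 ± 2.29 CPM (SD, n = 3) in the controls, against 28.2 ± 3.07 CPM (SD, n = 3) with APPswe. Exons of Ptger2, Ptgs1, Ptgis and Ptger4 also overlap those of opposite-strand genes missing from the count table, whose levels could not be given.

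Ptger3 (NCBI gene 19218, chr3:157566821-157644758), whose receptor mainly lowers cyclic AMP, was near the floor. It had 5 counts in each control library, with an exact Poisson 95% interval of 1.62 to 11.7 counts, and 17, 15 and 13 counts in APPswe replicates 1, 2 and 3. Every APPswe library had more counts than every control, and the log2 fold change was 1.54 (standard error 0.31, edgeR adjusted p = 0.0163). The call was lost with DESeq2 (adjusted p = 0.114) and, in edgeR, without control replicate 1 or 3 (adjusted p = 0.0522 and 0.0544) or APPswe replicate 1, 2 or 3 (0.0827, 0.0884 and 0.0722), and Ptger3 was not tested where 10 counts were required in every library. With a level under 1 CPM in all libraries, Ptger3 was the least abundant of the 10 genes.

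Levels between genes were compared per transcript length, in FPKM. In control libraries the order of mean FPKM was Hpgd (64.3 ± 12.9, SD, n = 3), Hpgds (45.4 ± 2.65), Ptgis (43.5 ± 6.19), Ptgs1 (21.7 ± 7.83), Ptges2 (10.2 ± 0.327), Ptgs2 (9.05 ± 5.30), Ptges (7.61 ± 1.23), Ptger4 (4.79 ± 0.671), Ptger2 (1.44 ± 0.0231) and Ptger3 (0.153 ± 0.00577). The neighbours Hpgds and Ptgis, Ptges2 and Ptgs2, and Ptgs2 and Ptges overlapped in their ranges, while the other neighbours did not. In APPswe libraries Ptgis came first (39.2 ± 1.41 FPKM), then Hpgds (34.8 ± 1.63 FPKM) and Hpgd (28.1 ± 1.77 FPKM), none of which overlapped with the next. Ptges (14.6 ± 1.09 FPKM), Ptgs2 (14.6 ± 1.18 FPKM), Ptgs1 (13.4 ± 0.677 FPKM) and Ptges2 (11.5 ± 2.03 FPKM) followed, each overlapping with its neighbours among these. The receptor genes came last in both groups and in the same order. Hpgd thus had the highest FPKM of the 10 genes in each control library and the third highest in each APPswe library.

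**Figure D4:**
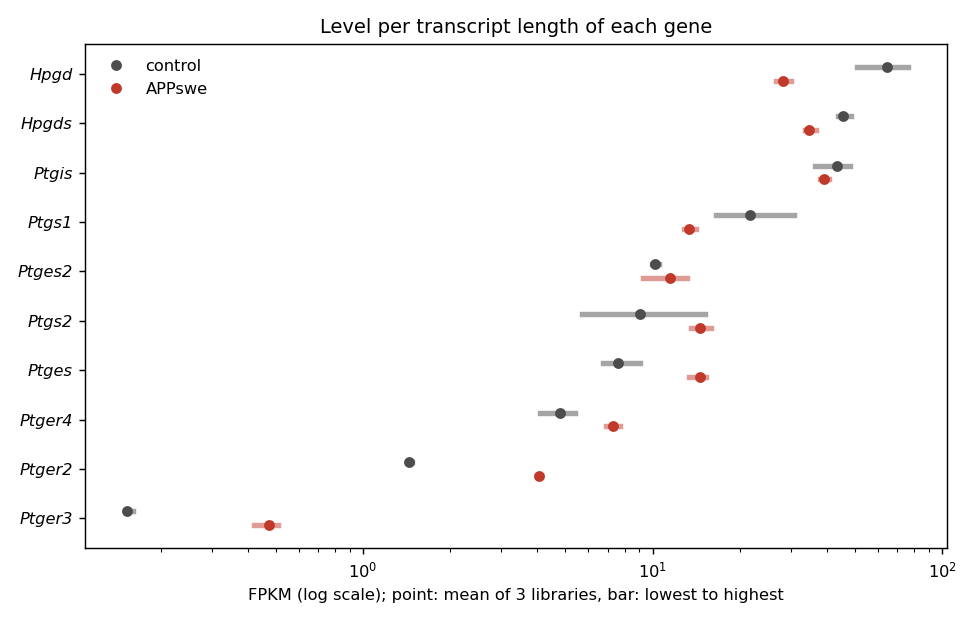
Level of each of the 10 genes per transcript length, in FPKM on a log axis, with the mean of the 3 libraries as a point and the lowest to highest library as a bar, in control (grey) and APPswe (red). Hpgd goes from 64.3 to 28.1 FPKM, and Ptges and Ptgs2 meet at a mean of 14.6 FPKM in APPswe libraries.

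Of the other genes of the pathway, a list of 45 that covers arachidonic acid release, the remaining synthases and receptors, transport and breakdown, and the leukotriene branch, 43 were in the table and 33 were tested. In APPswe libraries 2 of the 33 rose and 5 fell, against 10.5% and 12.0% of all genes tested, and the median log2 fold change was -0.07. Both genes that rose encode prostanoid receptors, and the other 3 genes tested from the receptor group did not pass. Without control replicate 2, 7 of 35 rose and 13 fell, where 23.3% and 25.0% of all genes tested did. None of the 8 release genes tested passed with all libraries, the cytosolic phospholipase gene Pla2g4a among them, whose value was -0.24 on the log2 scale (edgeR adjusted p = 0.429).

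The receptor gene Ptgfr, for prostaglandin F, had 84, 54 and 83 counts in the controls and 440, 412 and 443 counts in APPswe replicates 1, 2 and 3. The groups were far apart, and the log2 fold change was 2.53 (standard error 0.19, edgeR adjusted p = 0.000763). Tbxa2r, the thromboxane receptor gene, had 25, 29 and 26 counts in control and 64, 79 and 96 counts in APPswe replicates 1, 2 and 3. Tbxa2r rose by 1.55 on the log2 scale (standard error 0.22, edgeR adjusted p = 0.00517). Both passed in all 16 alternatives run. The remaining receptor genes Ptger1 and Ptgir were higher in every APPswe library than in every control without passing the test (log2 fold changes 0.84 and 0.45, edgeR adjusted p = 0.0762 and 0.0538). Ptgfrn, listed with the receptors for its name as a regulator of the prostaglandin F receptor, had overlapping groups (log2 fold change 0.15, edgeR adjusted p = 0.344), and Ptgdr2 had no count in any library, which at 3 counts is under 0.167 to 0.173 CPM.

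Tbxas1, the thromboxane synthase gene, was at 88.6, 70.9 and 92.2 CPM in control and 41.8, 47.0 and 44.5 CPM in APPswe replicates 1, 2 and 3. It fell by 0.92 on the log2 scale (standard error 0.12, edgeR adjusted p = 0.00337). Tbxas1 fell while the gene for its product's receptor, Tbxa2r, rose. Akr1b3, an aldose reductase gene linked to prostaglandin F synthesis, fell by 0.42 on the log2 scale (edgeR adjusted p = 0.0126), a call lost without APPswe replicate 1 (0.0573), 2 (0.0803) or 3 (0.0502). Ptgds, for the second prostaglandin D synthase, had no count in any library. Slco3a1, an organic anion transporter gene, fell from 42.4, 31.9 and 45.4 CPM to 13.8, 14.6 and 14.8 CPM, by 1.47 on the log2 scale (edgeR adjusted p = 0.00155), while the prostaglandin transporter gene Slco2a1 was at -0.17 on that scale (edgeR adjusted p = 0.166).

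In the leukotriene branch, which competes for the same arachidonic acid, 2 of 7 genes tested fell. Alox5, for 5-lipoxygenase, had 568, 633 and 620 counts in control and 147, 160 and 120 counts in APPswe replicates 1, 2 and 3. Every control library had more than 3 times the counts of any APPswe library, and the log2 fold change was -2.11 (standard error 0.13, edgeR adjusted p = 0.00042). Ltc4s, the leukotriene C synthase gene, fell by 0.73 on the log2 scale (edgeR adjusted p = 0.0195), a call lost without control replicate 1 or 3 (0.0589 and 0.0608) or APPswe replicate 1, 2 or 3 (0.0718, 0.0854 and 0.0871). Alox5ap, whose protein presents arachidonic acid to 5-lipoxygenase, did not pass (log2 fold change 0.11, edgeR adjusted p = 0.42). Tbxas1, Alox5 and Ltc4s are known from myeloid cells, as is Alox5ap, which did not pass. Of the 14 macrophage markers 8 fell, 1 rose (Aif1, by 1.18 on the log2 scale) and 5 did not pass, with a median log2 fold change of -0.68. The part of macrophage content in these falls was not tested.

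**Figure D5:**
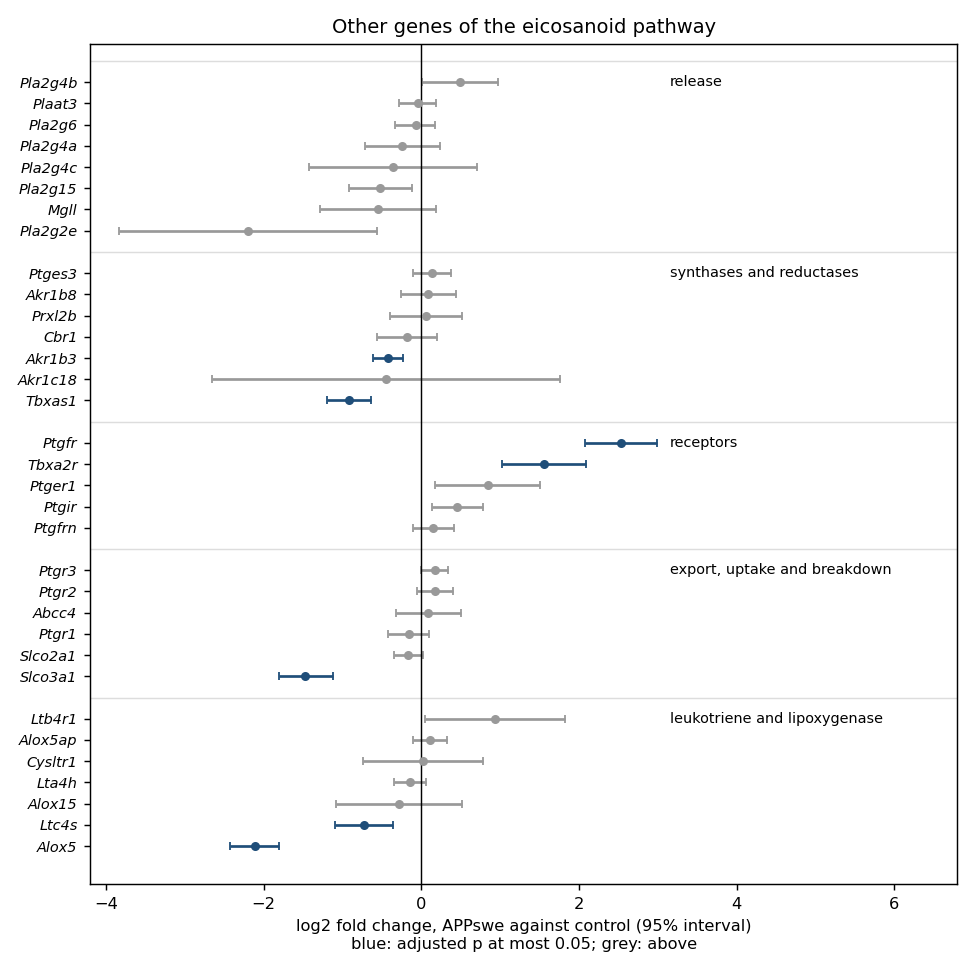
Log2 fold change, APPswe against control, with its 95% interval from edgeR, of the 33 other pathway genes tested, grouped by step, in blue where the adjusted p was at most 0.05 and in grey otherwise. Among the genes that passed, Ptgfr (2.53) and Tbxa2r (1.55) lie furthest to the right and Alox5 (-2.11) furthest to the left.

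The column names show that libraries were named in 2 styles, with a hyphen (control replicates 1 and 2 and APPswe replicate 1) or with another separator (control replicate 3 and APPswe replicates 2 and 3). Each style thus held 1 library of one of the groups, and for the 7 genes whose groups did not overlap the direction within a style was fixed beforehand. Of the 3 others, on the scale of log2(CPM + 0.1), the difference between APPswe and control within the hyphen style and the other style was 0.62 and 1.21 for Ptgs2, -0.20 and -0.34 for Ptgis, and -0.20 and 0.18 for Ptges2, which changed sign. With the naming style as a covariate 5 of the 10 genes passed. Control replicate 2 alone carries the letter S in its name, where every other library carries an L. A number after the L is the same for control replicate 3 and APPswe replicate 2, and a pairing by these names was not tested. The styles also differed in the authors' FPKM values, where 397 genes were blank in the hyphen style and 716 in the other style. What the styles, letters and numbers in the names mark is not given in the sources used here.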

How the data were processed

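RNA of tdTomato-positive cells from skull bone cultures was sequenced by the study on the DNBseq platform, after library preparation with a SMARTER mRNA kit. The raw read counts per gene and the FPKM values, rounded and partly blank, were deposited by the authors, with build GRCm38 in the submitters' processing notes. The aligner and counting tool are not given in the sources used here. FPKM values of the authors were used only for levels between genes and in alternatives. The log2 fold changes and p-values of the authors' own genotype comparison, also deposited, were not used. Groups and replicate numbers came from the labels. The deposited counts were fitted with edgeR 4.0.16 in R 4.3.3 (TMM, filterByExpr, glmQLFit and glmQLFTest without covariates), which kept 13484 of 17830 genes, and each standard error is the absolute log2 fold change divided by the root of the F statistic. The members, lists and tests were chosen with earlier results of these data known. Named genes were all 10 members, every pathway gene past an adjusted p of 0.05, 3 genes most like Ptgs1 and Ptgs2 each, App and Bglap, Y-linked genes and cell type markers. Others, named after their values were seen, are Ttc33, Pla2g4a, Ptger1, Ptgir, Ptgfrn, Ptgdr2, Ptgds, Slco2a1 and Alox5ap. The scripts were tested on simulated data. Alternatives were DESeq2 1.42.0, limma 3.58.1 on log2(FPKM + 1) or log2(FPKM + 0.1) without the 1113 genes with blank cells, other normalizations and filters, glmTreat, a block, the name style and leaving out each library. Gene positions and promoter windows are from RefSeq on GRCm38.p6, and overlaps between exons from GENCODE M21.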

Additional observations from a re-analysis of the deposited data

How the results depend on the processing

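Of the 10 genes, 7 passed the adjusted p of 0.05 with all libraries, and between 3 and 9 did when single libraries were left out. The stricter rule called 3 genes, between 2 and 5 with single libraries left out, and 1 (Ptger2) with glmTreat, which tests whether the change exceeds 1 on the log2 scale. Of the pathway list 7 genes passed, between 5 and 20 with single libraries left out, the highest without control replicate 2, where 6637 of all 13753 genes passed. The log2 fold change of Ptges2, 0.10, turned to -0.01 with the name style as a covariate and to 0.00 without APPswe replicate 2. With the replicate number as a block, 4 of the 10 genes, 6 pathway genes and 2021 of all 13484 genes passed. The calls lost were Ptgs1 (edgeR adjusted p = 0.0811), Ptger3 (0.0589), Ptger4 (0.0849) and Ltc4s (0.0518), and the mean Ptgs2 to Ptgs1 log2 ratio differed by 1.45 (exact sign-flip permutation p = 0.25, the smallest this design allows). Deviations of same-numbered libraries correlated at 0.074, -0.036 and 0.158. Control replicates 1 and 3 correlated best with the APPswe library of the same number, but control replicate 2 did so with APPswe replicate 1 (0.082). The numbers were therefore not taken to pair the libraries. APPswe replicates 2 and 3 were the closest pair, still apart by more than counting noise (chi-square over degrees of freedom 1.59), and the next, control replicates 1 and 3, were at 6.17. Depth limits Ptger3, at 5 counts in each control library.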
